A study of Mus musculus with 6 samples.

Results

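The 30 genes described here carry out or control the synthesis of cholesterol and fatty acids. They were chosen by name as a pathway, and each was read from a probe set (a group of array probes for the same transcript) whose platform annotation names that gene alone. Where a gene had several, the probe set with the highest mean over the 6 arrays stood for it. The 30 genes are among 18193 with such a probe set, and 12275 of those were bright enough to be tested. They comprise 12 genes of sterol synthesis, 12 of fatty acid synthesis, desaturation, elongation and activation, 5 that control SREBP, and Abca1, a sterol exporter. Of these, 29 were tested, and Abca1 lay at the background level of the array.

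RNA came from mouse lung endothelial cells kept for 16 h at 0.5% oxygen. The knockout cells (3 arrays) came from VE-Cadherin-Cre mice carrying floxed Hif-2a alleles on both copies. The control cells (3 arrays) are labelled wild type. Their sample description instead gives VE-Cadherin-Cre with Hif-2a floxed/WT, and the series design gives Hif-2a floxed/floxed. VE-Cadherin-Cre deletes in endothelial cells. The cells were selected repeatedly with endothelial markers and checked by flow cytometry, per the labels. All arrays were at low oxygen, so these values hold no response to oxygen itself. The labels do not tell whether a group's arrays stem from separate animals or cultures. The p-values therefore reflect the spread among these 6 arrays alone, and that spread may be technical. In such bulk RNA, fewer cells of a type and less RNA per cell cannot be told apart.

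Cholesterol is built from acetyl-CoA by way of mevalonate, squalene and lanosterol, and fatty acids are built from the same acetyl-CoA by acetyl-CoA carboxylase and fatty acid synthase, then elongated and desaturated. Both routes are switched on by the SREBP transcription factors, which the sterol sensor SCAP escorts out of the endoplasmic reticulum when sterols are low, while INSIG proteins hold the complex back. Several of the enzymes, among them the desaturases, squalene epoxidase and lanosterol demethylase, use molecular oxygen. HIF-2α, encoded by Epas1, is a transcription factor that is stabilised when oxygen is low.

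The bright Epas1 probe set did not separate the groups. It gave 8920, 9397 and 9859 intensity units on knockout arrays 1 to 3, against 9611, 9590 and 9444 on control arrays 1 to 3 (limma adjusted p = 0.753). The position of its probes relative to the deleted part was not used here, so it checks nothing, and the genotypes rest on the labels. Over genes, the log2 differences between controls 1 and 3 had an SD of 0.14, and those of the remaining pairs within a group had SDs of 0.31 to 0.68. Pairs of a knockout and a control array had SDs of 0.52 to 0.92, so the ranges within and between groups overlapped. Knockout 3 was nearer to controls 1, 2 and 3 (0.52, 0.585 and 0.54) than to knockout 2 (0.68). One axis held 87.1% of the variance within groups. On it, knockout 3 (position 0.66) lay farthest to one side, with controls 1 and 3 (0.18 and 0.24), and knockout 2 (-0.53), control 2 (-0.42) and knockout 1 (-0.13) lay on the other.

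Endothelial markers were bright but not level between the groups. All 12 had a log2 difference below 0, and Pecam1, Tek and Tie1 were past the threshold. Their summed signal ran from 136964 to 152497 on knockout arrays and from 164215 to 177301 on control arrays. Vwf and Cldn5, which also mark endothelium, were dim, with means of 40.8 and 25.5 on knockout arrays and 49.3 and 56.0 on control arrays. Markers of other cells were mostly below a signal of 16, taken here as the floor, on every array. This held for 10 of 11 alveolar type II and epithelial markers (Sftpc and Epcam among them), for 4 of 5 measured adipocyte markers (Adipoq among them), for 7 of 8 leukocyte markers (Ptprc among them) and for 10 of 11 fibroblast and mural markers (Col1a1 and Pdgfrb among them). The adipocyte exception was Fabp4, which lung capillary endothelium also expresses, at 45608 ± 1053 on knockout arrays and 47712 ± 1147 on control arrays (mean ± SD, n = 3 each). The leukocyte exception was Cd68, at 971 ± 192 on knockout arrays and 3925 ± 293 on control arrays (adjusted p = 0.00761). The summed adipocyte list ran from 44683 to 46762 on knockout arrays and from 46446 to 48654 on control arrays, and the summed leukocyte list from 787 to 1157 and from 3719 to 4284. The summed alveolar list ran from 2729 to 3402 on knockout arrays and from 2168 to 2282 on control arrays, nearly all of it Abca3. The summed fibroblast and mural list ran from 118 to 255 on knockout arrays and from 80.4 to 124 on control arrays. Tagln gave 207, 167 and 70.2 of it on knockout arrays 1 to 3 and 44.0, 74.9 and 32.1 on control arrays 1 to 3. The other genes of that list were under the floor. What part such cells, or the level of endothelial RNA, have in the results below was not tested.

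The lipid genes were more often higher than lower in knockout arrays, and the largest difference was in a desaturase. Of the 29 genes tested, 6 rose (Scd1, Fads2, Elovl5, Lss, Cyp51 and Scap), Scd2 fell, and 22 did not pass (limma, adjusted p under 0.05 over all genes). Over all 12275 genes, 13.7% were called, 8.64% higher and 5.08% lower. Since the lipid genes are bright, the shares among the 9447 genes left when the dimmest 60% of probe sets are dropped are given as well: 20.0% were called there, 13.4% higher and 6.58% lower, and the same 29 genes then gave 7 higher and 0 lower. The difference was above 0 in 22 of the 29 genes (75.9%), against 62.0% of all genes tested. Knockout and control arrays were fully separated in 15 of the 29 genes, against 36.2% of all genes. In 14 of them the knockout arrays were the higher ones (23.4% of all genes), and in Scd2 they were the lower ones (12.8% of all genes). The shares for differences above 0 and for separated arrays were taken over all genes, many of them dim. They are thus not matched to these genes for brightness. These calls rest on few arrays. With control 1, 2 or 3 left out, the calls among the 29 genes numbered 0, 2 and 1. With knockout 1, 2 or 3 left out, they numbered 1, 5 and 8. Over all genes the same fits called 205, 905, 211, 316, 968 and 3002, against 1684 with all arrays. Acaca and Sc5d without knockout 2, and Dhcr7 and Mvk without knockout 3, were calls not made with all arrays. When controls 1 and 3 were counted as a single sample (an alternative added once the values were known), Scd1 alone of the 29 was called. That setting called 194 genes in all.

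**Figure D1:**
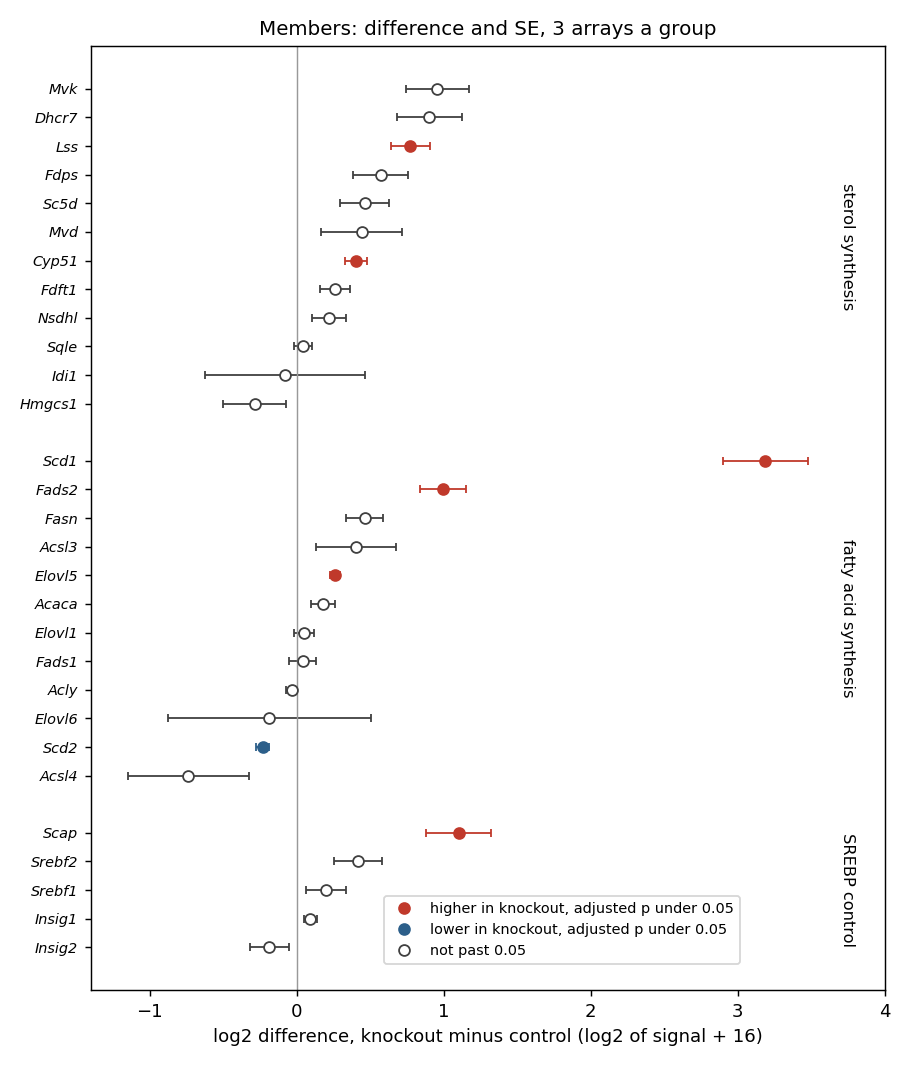
Log2 difference (knockout minus control, on log2 of signal + 16) with its SE for the 29 tested genes, in 3 groups of role and ordered by size. Filled red points are higher and the filled blue point lower in knockout at an adjusted p under 0.05; open points did not pass. Scd1, at 3.19, stands far to the right of the other genes, and 10 of 12 sterol genes lie right of 0.

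Scd1 and Scd2, which encode stearoyl-CoA desaturases that place the first double bond in saturated fatty acids, moved in opposite directions. Scd1 gave 744, 870 and 743 intensity units on knockout arrays 1 to 3, against 72.8, 109 and 44.6 on control arrays 1 to 3. Every knockout array was far above every control array. These values rest on 1 of the 2 Scd1 probe sets, since the other was at the floor on all 6 arrays. The mean was 786 ± 73.4 in knockout and 75.6 ± 32.5 in control arrays (SD, n = 3 each). On the log2 scale this is 3.19 ± 0.29 (difference ± SE; adjusted p = 0.0089 in limma), and 12 genes of all those tested had a larger positive difference. The added 16 understates the change of this dim gene in controls, and the plain ratio of the mean signals was 10.4. With each array left out in turn Scd1 passed in 5 of 6 cases, and without control 1 its adjusted p was 0.057 at a log2 difference of 3.20.

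Scd2 gave 15371, 16691 and 16117 units on knockout arrays, against 19529, 18590 and 18465 on control arrays. The groups did not overlap, but the difference was small, at -0.23 ± 0.04 (adjusted p = 0.0335). Its other probe sets were also lower in knockout arrays. They had log2 differences of -0.36 ± 0.06 and -0.70 ± 0.31 and, over all probe sets, limma adjusted p = 0.0429 and adjusted p = 0.241. The call is fragile: with an array left out it held only without knockout 2 (adjusted p = 0.0498, against 0.0503 to 0.126 for the others). It also ended under 75th percentile scaling of the arrays (adjusted p = 0.0582). Signals of different probe sets are not on a common scale, so the levels of Scd1 and Scd2 are not set against each other.

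Polyunsaturated fatty acids are made by alternating desaturation and elongation, and of the genes for these steps Fads2 and Elovl5 rose. Fads2, the delta-6 desaturase that starts this pathway, gave 3604, 4629 and 3222 units on knockout arrays, against 1843, 2054 and 1767 on control arrays. The lowest knockout array was well above the highest control array. The log2 difference was 0.996 ± 0.155 (adjusted p = 0.0254), and its dimmer probe sets gave 0.89 ± 0.14 and 1.34 ± 0.26. The call held without knockout 2 or 3 and ended without any other single array (adjusted p = 0.0586 to 0.111).

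Elovl5, an elongase of polyunsaturated fatty acids, gave 15147, 15640 and 15206 units on knockout arrays, against 12727, 13328 and 12370 on control arrays. The difference was 0.26 ± 0.03 (adjusted p = 0.0188), small but larger than the spread in either group. This probe set is of a type that can bind related transcripts (its name ends in _x_at). A further one, with no such mark, gave 0.31 ± 0.04 (limma adjusted p = 0.0207 over probe sets). The Elovl5 call held without control 2 or knockout 3 and ended without any other single array (0.0526 to 0.0942). Fads1, the delta-5 desaturase that acts after Fads2 in the same pathway, ran from 2881 to 3618 units on knockout arrays and from 3042 to 3211 on control arrays, with a difference of 0.04 ± 0.09 (adjusted p = 0.837).

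The sequences just upstream of Elovl5 and Fads2 are shown to set these 2 genes of the same pathway side by side. They are the 180 bases before the annotated start, from RefSeq on GRCm38.p6, at chr9:77917185-77917364 (plus strand) and chr19:10101504-10101683 (minus strand). Capitals mark matches, on either strand, to CACGTG (an E-box) or CCAAT (the box bound by NF-Y, read ATTGG on the other strand).
Elovl5: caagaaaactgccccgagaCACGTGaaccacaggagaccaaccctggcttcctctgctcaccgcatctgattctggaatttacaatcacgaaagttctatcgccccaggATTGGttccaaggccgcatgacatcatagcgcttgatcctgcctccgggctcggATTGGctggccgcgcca
Fads2: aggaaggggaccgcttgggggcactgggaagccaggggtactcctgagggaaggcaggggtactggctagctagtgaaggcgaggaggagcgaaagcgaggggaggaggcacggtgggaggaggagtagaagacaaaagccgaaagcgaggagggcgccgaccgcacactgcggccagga
Elovl5 holds 1 E-box, which begins 161 bases before the start, and 2 CCAAT boxes, whereas neither string is in the Fads2 window. The E-box of Elovl5 contains ACGTG, the core of a hypoxia response element, on both strands. No match says only that these letters are not in this window.

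The remaining fatty acid genes did not pass. Fasn, the fatty acid synthase, was closest: it gave 2663, 3040 and 2482 units on knockout arrays, against 1695, 2128 and 2112 on control arrays. The groups did not overlap, with a difference of 0.46 ± 0.13 (adjusted p = 0.0807). Acaca, the carboxylase that makes malonyl-CoA, had a difference of 0.18 ± 0.08 (adjusted p = 0.222). Acly, which makes cytosolic acetyl-CoA from citrate, differed by -0.04 ± 0.04 (adjusted p = 0.58), at 17578 ± 684 units in knockout and 18012 ± 423 in control arrays. Elovl1, an elongase of saturated very long chains, differed by 0.05 ± 0.07. Acsl3 and Acsl4, which activate fatty acids to acyl-CoA, had differences of 0.40 ± 0.27 and -0.74 ± 0.41, and Elovl6, which elongates palmitate, had -0.19 ± 0.69. The wide errors of the last 3 genes come with large differences between arrays of the same group, described below.

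**Figure D2:**
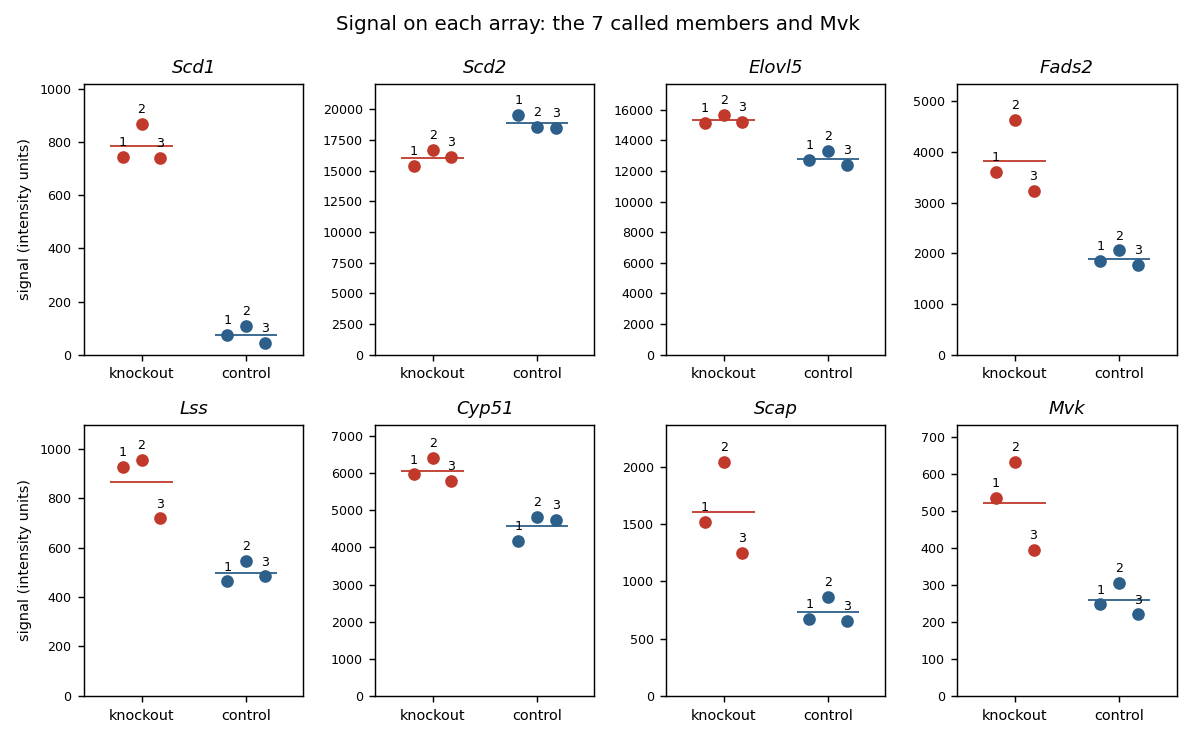
Signal (intensity units, linear axis from 0) on each array for the 7 genes past the threshold and for Mvk, with knockout arrays in red on the left, control arrays in blue on the right, array numbers above the points and a line at each group's mean. No knockout array overlaps a control array in these 8 genes; Scd2 is the gene in which the knockout arrays are the lower ones.

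The sterol genes leaned higher as a group, though few passed. Of 12, Lss and Cyp51 rose, 0 fell and 10 did not pass. That is 16.7% called higher, against 8.64% of all genes. With the dimmest 60% left out, 4 of 12 were called, against 13.4% of the brighter genes. With 12 genes and calls that move between settings, these counts do not set the list apart. The sterol differences were above 0 in 10 of 12, against 62.0% of all genes. In 8 of 12 every knockout array lay above every control array, against 23.4% of all genes. These shares of all genes are not matched for brightness. The median difference was 0.42, against 0.0071 over all genes tested and 0.051 over the brighter genes. Of the 12 fatty acid genes, 3 were called higher and 1 lower, against 8.64% and 5.08% of all genes. With the dimmest 60% left out, 2 were called higher and 0 lower, against 13.4% and 6.58% of the brighter genes. Differences were above 0 in 8 of 12, against 62.0% of all genes. Groups did not overlap in 4 genes on the higher and 1 on the lower side, against 23.4% and 12.8% of all genes. These counts do not set this list apart either. The median was 0.11. The fatty acid list thus held the largest single difference and the sterol list the higher median. Without knockout 2 the medians were closer, at 0.33 for the sterol genes and 0.25 for the fatty acid genes, and with the probe sets of each gene averaged they were 0.26 and 0.14. The difference between the lists was not tested, since the genes were chosen with results of these data known.

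**Figure D3:**
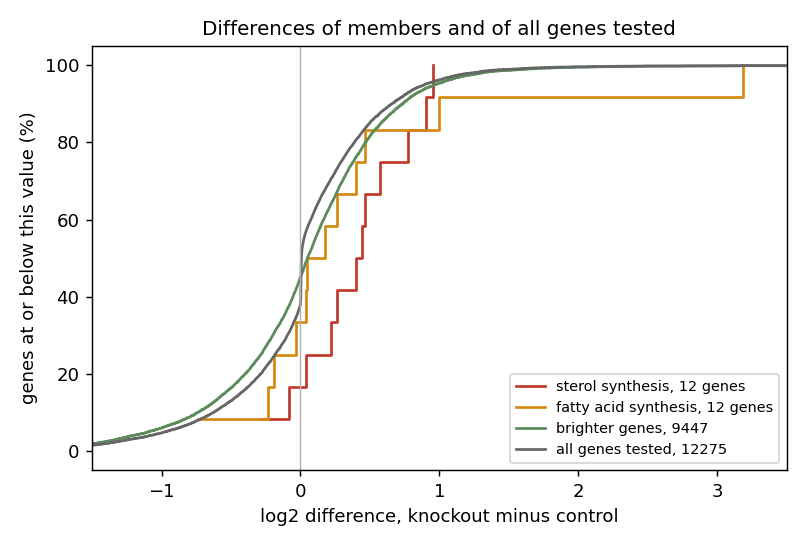
Share of genes (percent) at or below each log2 difference, knockout minus control, for the 12 sterol genes, the 12 fatty acid genes, the 9447 brighter genes and all 12275 genes tested. The sterol line runs to the right of the others through its middle, at a median of 0.42, and the fatty acid line stays near the brighter genes up to its last steps, Fads2 and Scd1.

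Lss, lanosterol synthase, closes the sterol rings. It gave 926, 955 and 719 units on knockout arrays, against 463, 547 and 484 on control arrays. All knockout arrays were higher, and the log2 difference was 0.77 ± 0.13 (adjusted p = 0.0318). Its probe set is shared by several transcripts (_s_at), but another bright one without that mark gave 0.75 ± 0.12. A dim further probe set gave 0.16 ± 0.09 (limma adjusted p = 0.322 over probe sets). The call held without knockout 3 and ended without any other single array (0.0625 to 0.13).

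Cyp51, the lanosterol demethylase, acts on the product of Lss. It gave 5966, 6407 and 5781 units on knockout arrays, against 4184, 4824 and 4730 on control arrays. Again the groups did not overlap. The difference was 0.40 ± 0.07 (adjusted p = 0.034), and its dimmer probe sets gave 0.24 ± 0.06 and, near the floor, 0.07 ± 0.16. Without knockout 3 the call held, and without any other single array it ended (0.0633 to 0.119).

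Mvk and Dhcr7 had larger differences than Lss but wider errors. Mvk, mevalonate kinase, gave 535, 633 and 394 units on knockout arrays, against 247, 306 and 220 on control arrays. Dhcr7, which reduces the last double bond of the cholesterol pathway, gave 1501, 1874 and 1113 units on knockout arrays, against 745, 892 and 702 on control arrays. Neither gene's groups overlapped, and knockout 3 was the lowest knockout array and control 2 the highest control array in both. The differences were 0.96 ± 0.22 and 0.90 ± 0.22 (limma adjusted p = 0.0541 and adjusted p = 0.0633), and both passed without knockout 3.

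The other sterol genes differed less. Fdps, which makes farnesyl diphosphate, had a difference of 0.57 ± 0.19 (adjusted p = 0.12). Fdft1, squalene synthase, had 0.26 ± 0.10, Nsdhl, a sterol dehydrogenase, 0.22 ± 0.11, and Sc5d, a sterol desaturase, 0.46 ± 0.17. In these 4 genes the groups did not overlap. Mvd, mevalonate diphosphate decarboxylase, had 0.44 ± 0.27 with overlapping groups. Sqle, squalene epoxidase, was nearly level, at 2213 ± 128 units in knockout and 2148 ± 108 in control arrays, with a difference of 0.04 ± 0.06 (adjusted p = 0.701).

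Hmgcs1 and Idi1 were the sterol genes with a difference below 0, and neither passed. Hmgcs1, which makes HMG-CoA, gave 11279, 9448 and 15705 units on knockout arrays, against 15308, 12912 and 15402 on control arrays. Knockout 3 lay above all controls and the other knockouts below all of them. The difference was -0.29 ± 0.21 (adjusted p = 0.417). Idi1, an isomerase of isopentenyl diphosphate, gave 2402, 1543 and 4796 units on knockout arrays, against 3405, 1696 and 3635 on control arrays, with a difference of -0.08 ± 0.54 (adjusted p = 0.929). Its sign turned without control 1 or 3 or knockout 2 (0.07 to 0.30).

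**Figure D4:**
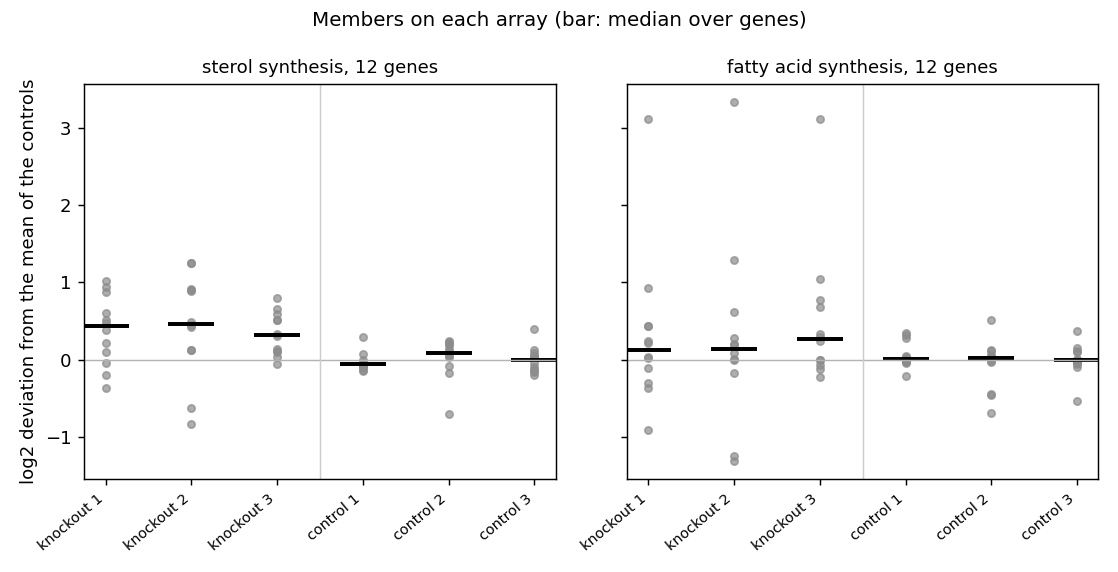
Log2 deviation of each gene from the mean of the 3 controls on each array, for the 12 sterol genes (left) and the 12 fatty acid genes (right); points are genes and bars are medians over genes. The sterol medians lie at 0.43, 0.47 and 0.32 on knockout arrays 1 to 3, against -0.06, 0.09 and -0.0026 on control arrays 1 to 3, while the fatty acid medians are 0.13, 0.14 and 0.27 against 0.01, 0.02 and -0.0055.

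On single arrays the sterol genes were above the control mean in 9, 10 and 11 of 12 cases for knockouts 1 to 3, as the plot of deviations by array shows. The genes below it were Hmgcs1, Idi1 and Sqle on knockout 1 (-0.36, -0.20 and -0.03), Hmgcs1 and Idi1 on knockout 2 (-0.62 and -0.83), and Mvd on knockout 3 (-0.05). The fatty acid genes were above the control mean in 8 of 12 cases on each knockout array.

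Upstream sequences are shown for 4 sterol genes: the 2 that rose, Mvk, and Hmgcs1, which held the only match to the sterol response element searched for. RefSeq's promoter table for GRCm38.p6 matched 24 of the 30 genes, among them 9 of the 12 sterol genes; Fdps, Fdft1, Sqle, Scd1, Scd2 and Fads1 were not matched. Each is the 180 bases before the annotated start: Lss at chr10:76531425-76531604 (plus strand), Cyp51 at chr5:4104698-4104877 (minus strand), Hmgcs1 at chr13:119690171-119690350 (plus strand) and Mvk at chr5:114444089-114444268 (plus strand). Capitals mark CCAAT or ATTGG and, in Hmgcs1, TCACNCCAC.
Lss: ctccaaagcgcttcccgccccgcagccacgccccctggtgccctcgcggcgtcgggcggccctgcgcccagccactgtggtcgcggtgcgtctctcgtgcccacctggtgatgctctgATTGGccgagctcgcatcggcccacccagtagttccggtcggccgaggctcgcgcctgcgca
Cyp51: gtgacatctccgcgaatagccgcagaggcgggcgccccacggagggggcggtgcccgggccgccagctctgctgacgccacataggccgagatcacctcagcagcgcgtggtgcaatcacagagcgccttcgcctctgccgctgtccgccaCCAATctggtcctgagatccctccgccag
Hmgcs1: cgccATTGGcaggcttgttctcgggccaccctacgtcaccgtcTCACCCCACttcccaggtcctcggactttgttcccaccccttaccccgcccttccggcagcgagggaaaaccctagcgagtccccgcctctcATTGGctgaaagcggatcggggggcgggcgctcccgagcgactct
Mvk: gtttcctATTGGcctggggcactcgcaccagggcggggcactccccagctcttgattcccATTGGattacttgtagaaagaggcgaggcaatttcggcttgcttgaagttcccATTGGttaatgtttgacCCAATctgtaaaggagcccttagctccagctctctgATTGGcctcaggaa

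All 9 sterol genes with a promoter entry had at least 1 CCAAT box, on either strand, in the 250 bases before a start, and Mvk had 5. Of the 9 fatty acid genes with an entry, 4 did (Acsl3, Elovl1, Elovl5 and Fasn), and of the 5 SREBP control genes, 4. Among all 32851 promoters of the same length, 33.8% held it. That share is per promoter, whereas a gene was counted if any of its promoters matched (32 promoters for the 24 genes). The counts of genes can therefore run higher than such a share, and they are not compared with it by a test. NF-Y, which binds this box, is known to act beside SREBP at sterol genes. The box was present in sterol genes that rose (Lss, Cyp51) and in those whose difference was below 0 (Hmgcs1, Idi1).

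The other strings searched for were less frequent than the CCAAT box. TCACNCCAC, a form of the sterol response element, was in 1.05% of all promoters and, of these genes, in Hmgcs1 alone, where it begins 137 bases before the start. The E-box CACGTG was in 6.02% of all promoters and in 6 of the 24 genes: Abca1, Dhcr7, Elovl5, Insig1, Sc5d and Scap. ACGTG, which every CACGTG contains, was in 16.6% of all promoters and in those 6 genes and Acly. Here too the shares are per promoter and the counts per gene. These matches are letters in a window, not sites.

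Scap was the controller that rose. It gave 1518, 2041 and 1245 units on knockout arrays, against 668, 864 and 654 on control arrays. The lowest knockout array was above the highest control array, and the difference was 1.10 ± 0.22 (adjusted p = 0.0435). The call held without knockout 3 and ended without any other single array (0.0694 to 0.16). Its second probe set was at the floor on every array.

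The transcription factors themselves differed less. Srebf2, which mainly drives sterol genes, gave 4268, 5365 and 3989 units on knockout arrays, against 3214, 3968 and 3017 on control arrays. The lowest knockout value was just above the highest control value, with a difference of 0.41 ± 0.16 (adjusted p = 0.163), and its other probe set gave 0.55 ± 0.19. Srebf1, which mainly drives fatty acid genes, gave 1957, 2168 and 1589 units on knockout arrays, against 1542, 1809 and 1595 on control arrays. Its groups overlapped (difference 0.20 ± 0.14, adjusted p = 0.387).

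The INSIG genes, whose proteins retain SCAP, went in different directions without passing. Insig1 gave 12654, 11772 and 12000.5 units on knockout arrays, against 10993, 11911 and 11303 on control arrays, a difference of 0.09 ± 0.04 (adjusted p = 0.242). Insig2 gave 1311, 1307 and 1016 units on knockout arrays, against 1253, 1502 and 1372 on control arrays, a difference of -0.19 ± 0.13 (adjusted p = 0.392). Its dimmer probe sets disagreed with the chosen one on the call but not on the direction. They gave 576, 572 and 564 units on knockout arrays against 775, 725 and 794 on control arrays (log2 difference -0.41 ± 0.04), and 943, 897 and 898 on knockout arrays against 1108, 1225 and 1180 on control arrays (-0.35 ± 0.05). Over all probe sets tested, limma gave these adjusted p = 0.0141 and adjusted p = 0.0244. With the probe sets averaged Insig2 was called lower.

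Abca1, which exports cholesterol to lipoproteins, was under the floor in all 3 of its probe sets. The brightest gave 4.73, 4.78 and 4.71 units on knockout arrays, against 4.68, 4.67 and 4.74 on control arrays, and was left out of the test as too dim, so these arrays give no fold for it.

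Across the 30 genes there were 75 probe sets, of which 62 were tested. Of 33 further tested probe sets beside the chosen ones, 29 had the same direction as the chosen one. The 33 include probe sets of Acly, Fads1 and Hmgcs1 under the floor on every array, with differences of 0.0003 to 0.012. The direction of such probe sets carries little weight. The opposite directions were in those of Acly and Hmgcs1 and in a dim one of Elovl6. For the 7 called genes the direction was the same in 9 of 9, and 4 of these also passed in a fit over probe sets. Scd1 and Scap had no further tested probe set, so none of the 9 is theirs. In the fit over probe sets the chosen probe set of Scap did not pass (limma adjusted p = 0.0593). No further probe set was called in the opposite direction.

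Arrays of the same group differed along a pattern that most of these genes shared. In 16 of 29 genes knockout 3 was the lowest knockout array and control 2 the highest control array, among them Lss, Cyp51, Mvk, Dhcr7, Scd1, Fads2, Scap, Srebf1 and Srebf2. In 6 genes it was the reverse, with knockout 3 highest and control 2 lowest: Hmgcs1, Idi1, Sc5d, Acsl3, Acsl4 and Elovl6. Both orders follow the positions of knockout 3 and control 2 on the axis given above. That axis was found over all genes tested, and the share of all genes in either order was not counted. The pattern is thus not shown to be particular to these genes. The part of that axis in the difference between the groups was not tested.

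**Figure D5:**
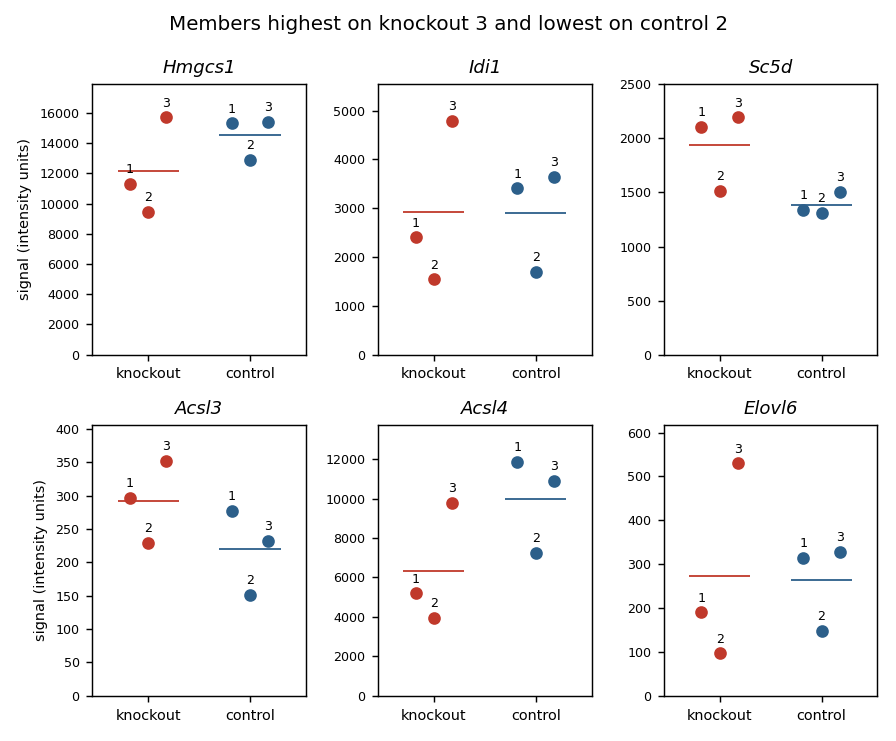
Signal (intensity units, linear axis from 0) on each array for the 6 genes in which knockout 3 was the highest knockout array and control 2 the lowest control array; knockout arrays in red on the left, control arrays in blue on the right, lines at the group means. In all but Sc5d the groups overlap.

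Acsl4 and Elovl6 show the size of this variation. Acsl4 gave 5189, 3959 and 9790 units on knockout arrays, against 11867, 7228 and 10888 on control arrays. Elovl6 gave 190, 96.6 and 530 units on knockout arrays, against 315, 149 and 327 on control arrays. For Elovl6 the log2 range among the knockout arrays was 2.28 and among the controls 1.06, far above its difference between the groups of -0.19, which turned to 0.34 without knockout 2.

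Other genes of the same pathways, outside the 30, are given by their counts, to be read against the 8.64% of all genes called higher and 5.08% called lower (13.4% and 6.58% of the brighter genes). With 1 of 7, 3 of 16 and 1 of 11 genes called, these lists lie near those shares. Of 7 further sterol synthesis genes tested, Lbr, a sterol reductase that is also an inner nuclear membrane protein, rose, and 6 did not pass. Lbr gave 8038 ± 692 units in knockout and 5487 ± 288 in control arrays (difference 0.55 ± 0.08, adjusted p = 0.0213). The median of these 7 was 0.34, with 6 above 0. Of 16 further fatty acid synthesis genes, 3 rose and 13 did not pass, with a median of 0.10. The 3 were Hacd3 (0.44 ± 0.06, adjusted p = 0.0167) and Hacd1 (0.42 ± 0.07), which encode dehydratases of fatty acid elongation or proteins of that family, and Me1, the malic enzyme that supplies NADPH (0.16 ± 0.03). Of 11 further genes of sterol sensing, uptake and export, Npc1 fell and 10 did not pass, with 8 below 0 and a median of -0.09. Npc1, which moves cholesterol out of lysosomes, gave 727 ± 118 units in knockout and 1328 ± 165 in control arrays (difference -0.86 ± 0.16, adjusted p = 0.0335). With single arrays left out Lbr, Hacd3 and Npc1 each passed in 2 of 6 cases and Hacd1 and Me1 in 1. Some well-known genes of the pathway had no probe set named for them alone and were not analysed here.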

How the data were processed

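Total RNA was amplified, labelled with biotin and hybridised, 1 array per sample, per the labels' protocols. The authors deposited 1 linear intensity per probe set and array. MAS5 and GCRMA are the tools listed, without role or version, per the submitters' processing notes. Array medians were nearly equal (5.52 to 5.66), and no further normalization was applied. The deposited values pull dim probe sets to a common floor, and these medians lie under the floor signal used here. They therefore cannot show whether brighter probe sets were level between arrays. Quantile normalization kept the calls of all 7 called genes, and 75th percentile scaling ended the call of Scd2 alone. The number of arrays limits the precision.

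Probe sets were named from the platform annotation: of 45101, 34945 had 1 gene, 932 had several, 9160 were unnamed and 64 were array controls. Values were taken as log2(intensity + 16). The dimmest 40% of probe sets, by their mean over all arrays, were left out, and the brightest probe set stood for each gene, which left 12275 genes. Groups were compared with limma 3.58.1 (R 4.3.3; lmFit and eBayes, two-sided), with Benjamini-Hochberg adjustment over all genes and a threshold of 0.05. Values are mean ± SD over 3 arrays, and differences (knockout minus control) have their SE. The members and lists were chosen with earlier results of these data known, so no test over a list was made. All members are accounted for, with values by array for called members and controllers; Mvk, Dhcr7, Fasn, Hmgcs1, Idi1, Acsl4 and Elovl6 were added after their values were seen. In the further lists up to 4 called genes with the smallest p were named. The fit was also run on simulated data with independent noise for each gene and array, in which 5 unchanged genes were called. It called 40%, 54%, 74% and 90% of genes changed by a log2 of 0.5, 1, 2 and 3. The real arrays share an axis within groups that the simulation lacks, so these figures do not carry over to them. The alternatives were other scalings, pseudocounts and filters, a variance trend, array weights, means of probe sets, omission of each array in turn, and a block for the replicate number. Figures were drawn with matplotlib 3.10.9.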

Additional observations from a re-analysis of the deposited data

How the results depend on the processing

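The median difference of the sterol genes stayed above 0 in every alternative run and moved from 0.42 to 0.26 with the probe sets of a gene averaged; with single arrays left out it ran from 0.33 to 0.43. The median of the fatty acid genes ran from 0.11 to 0.25, the last without knockout 2. Counts of calls were far less stable. The counts below are of all genes, sterol genes, fatty acid genes, and SREBP control genes with Abca1, which were 1684, 2, 4 and 1 as reported. With single arrays left out they ran from 205 to 3002, from 0 to 4, from 0 to 4 and from 0 to 1. Without a filter 883 genes, 0 sterol genes and 0 control genes were called. With the lowest 60% left out it was 1885 genes, 4 sterol and 2 fatty acid genes: Elovl5 and Scd2 lost the call and Dhcr7 and Mvk gained it. With array weights, whose estimation did not converge, 8539 genes, 10 sterol, 9 fatty acid and 4 control genes were called. Of these calls, 1 sterol gene (Hmgcs1) and 4 fatty acid genes were lower in knockout arrays. With probe sets averaged 1523 genes, 1 sterol and 2 control genes were called. Controls 1 and 3 averaged gave 194 genes and 0, 1 and 0. With control 2 and knockout 3 left out it was 4652 genes, 5 sterol, 4 fatty acid and 2 control genes. Of these calls, Hmgcs1 (-0.57) and Acsl4 (-1.32) were lower, and Scd2 was not called. These last 2 settings were chosen after the data were seen.

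The arrays of both groups are numbered 1 to 3. Deviations of same-numbered arrays from their group means correlated at -0.47, 0.84 and 0.80, so the numbers are not shown to pair them. With the replicate block 2995 genes, 6 sterol and 2 control genes were called. Of 522 values for single genes under the alternatives, 433 kept their direction and side of the threshold, 46 lost the call, 34 gained it and 9 changed sign. The sign changes were in genes that had not passed: Idi1 (-0.5156 to 0.2976 with an array left out, 0.0949 with controls 1 and 3 averaged) and Insig2 (0.0242 with array weights), and, without knockout 2, Elovl6 (-0.8014 to 0.3374 over the arrays left out), Sqle (-0.0011 to 0.0811), Elovl1 (-0.0189 to 0.1074) and Fads1 (-0.042 to 0.1214). The causes were not tested. Scd1 kept its call in 17 of 18 alternatives, with differences of 2.63 to 3.48, and Scd2 in 6 of 18. Genes near the floor, such as Abca1, cannot be compared at this signal over background.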
